A study of Mus musculus with 15 samples.

Results

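The genes described here encode the respiratory chain of the mitochondrion and the ATP synthase. They were taken from the table of gene counts by name and biotype, without use of any measured level: protein-coding genes whose symbols begin with Ndufa, Ndufb, Ndufc, Ndufs, Ndufv, Uqcr, Cox4 to Cox8, Atp5 or mt-, together with Sdha, Sdhb, Sdhc and Sdhd. The rule found 98 of 40510 genes, 85 of them nuclear and 13 carried by mitochondrial DNA. Complex I held 36 nuclear and 7 mitochondrial members, complex II 4 nuclear, complex III 8 and 1, complex IV 20 and 3, and the ATP synthase (complex V) 16 and 2. The remaining member, Atp5s, matched by name but encodes an assembly factor. Of the 98 members, 89 (81 nuclear and 8 mitochondrial) had counts high enough to be tested.

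The RNA came from alveolar macrophages, which live in the air spaces of the lung and clear particles and surfactant there, washed out of the lungs of untreated C57BL/6 mice. Cybb-knockout (KO) animals, a model of chronic granulomatous disease that lacks the gp91phox subunit of the phagocyte NADPH oxidase, were set against wild-type (WT) animals. Cells were sorted as CD45-positive, Ly6G-negative, SiglecF-positive and CD11c-positive and then divided by CD11b into CD11b-low and CD11b-high. The 5 groups of 3 libraries were WT CD11b-low and KO CD11b-low at 4 weeks of age, the same 2 at 12 weeks, and KO CD11b-high at 12 weeks. Each library pooled 2 to 3 mice of a group to reach about 50000 cells, so no value below belongs to a single animal, and no CD11b-high WT cells were analysed here.

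Electrons from NADH and succinate enter the chain at complex I and complex II, pass through coenzyme Q to complex III, and reach oxygen at complex IV. Complexes I, III and IV pump protons, and the ATP synthase uses the resulting gradient to make ATP. Most subunits are encoded in the nucleus and imported, while a small set of hydrophobic core subunits is transcribed from mitochondrial DNA, so that complexes I, III, IV and V need both genomes and complex II only the nuclear one. Alveolar macrophages are known for a metabolism that relies strongly on lipid handling and oxidative phosphorylation.

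The libraries held 22856331 to 36458893 counts over genes (median 32415469). Cybb itself was counted at 129 to 221 CPM (counts scaled to a common library total) in the 9 KO libraries and at 899 to 2318 CPM in the 6 WT libraries, without overlap, so transcript remained in the KO cells. WT library 1 of 12 weeks stood apart in composition: protein-coding genes took 96.79% of its counts against 97.83% to 98.87% in the others, lncRNA and antisense genes 1.939% against 0.599% to 1.23%, and Malat1 0.409% against 0.0695% to 0.238%. All 16 alveolar macrophage markers were tested and their summed level was 38110 to 67340 CPM in every library, while Ly6g and Epx, which define neutrophils and eosinophils, were at 0 in all. Some marker lists of other cells moved with the groups: erythroid genes (8 of 9 tested) summed to 1818 to 8424 CPM in WT cells at 4 weeks, 496 to 1357 CPM in WT cells at 12 weeks and 53.4 to 172 CPM in KO cells. T and NK cell genes (13 of 14 tested) summed to 851 to 1035 CPM at 4 weeks, 1383 to 1593 CPM in WT cells at 12 weeks, 1247 to 1304 CPM in KO CD11b-low cells and 869 to 969 CPM in CD11b-high cells. Neutrophil genes (9 of 12 tested) summed to 391 to 555 CPM in CD11b-high cells against 96.9 to 234 CPM in the other libraries, eosinophil genes (2 of 6 tested) to 123 to 999 CPM in KO cells at 12 weeks against 10.02 to 39.2 CPM elsewhere, and dendritic cell genes (9 of 9 tested) to 125 to 577 CPM in CD11b-high cells against 18.4 to 109 CPM elsewhere. The part of these cells in the results below was not tested.

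Levels per gene length differed widely among the members. Dividing the mean CPM over the 15 libraries by the summed exon length in kilobases, mt-Cytb, the mitochondrial cytochrome b of complex III, stood highest at 2047 CPM per kb, followed by mt-Nd1 of complex I at 1513 CPM per kb. These genes shared 0% of their 50-base words with another annotated transcript. mt-Co1 shared 51.1% and several other mitochondrial genes more, as given below, so the order among mitochondrial genes is uncertain. The highest nuclear members per length were Cox4i1, the common isoform of the regulatory subunit 4 of complex IV, at 885 CPM per kb and Cox6b1 at 847 CPM per kb. Within the other complexes the highest nuclear values were 637 CPM per kb for Uqcr10 of complex III, 487 CPM per kb for Ndufa1 of complex I, 467 CPM per kb for Atp5c1, the gamma subunit of the ATP synthase, and 426 CPM per kb for Sdhd, a membrane anchor of complex II. Several members were counted at very low levels, among them Ndufab1, the mitochondrial acyl carrier protein, at 0.833 CPM per kb, Ndufb2 at 1.62 CPM per kb and Atp5l at 1.90 CPM per kb. The lengths join the exons of all annotated transcripts of a gene. They were 6883 bases for Ndufab1, 5628 for Ndufb2 and 6443 for Atp5l, but 419 for Ndufa1. The order per kb therefore also depends on the annotation. Of the 3 genes for the c subunit of the ATP synthase, Atp5g3 stood at 127.8 CPM per kb, Atp5g1 at 2.35 CPM per kb and Atp5g2 at 0.946 CPM per kb. Before scaling by length, the highest nuclear members of their complexes were Ndufa3 (376.5 CPM on average), Sdhd (525 CPM), Uqcrc1 (398 CPM), Cox4i1 (1372 CPM) and Atp5c1 (891 CPM).

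**Figure D1:**
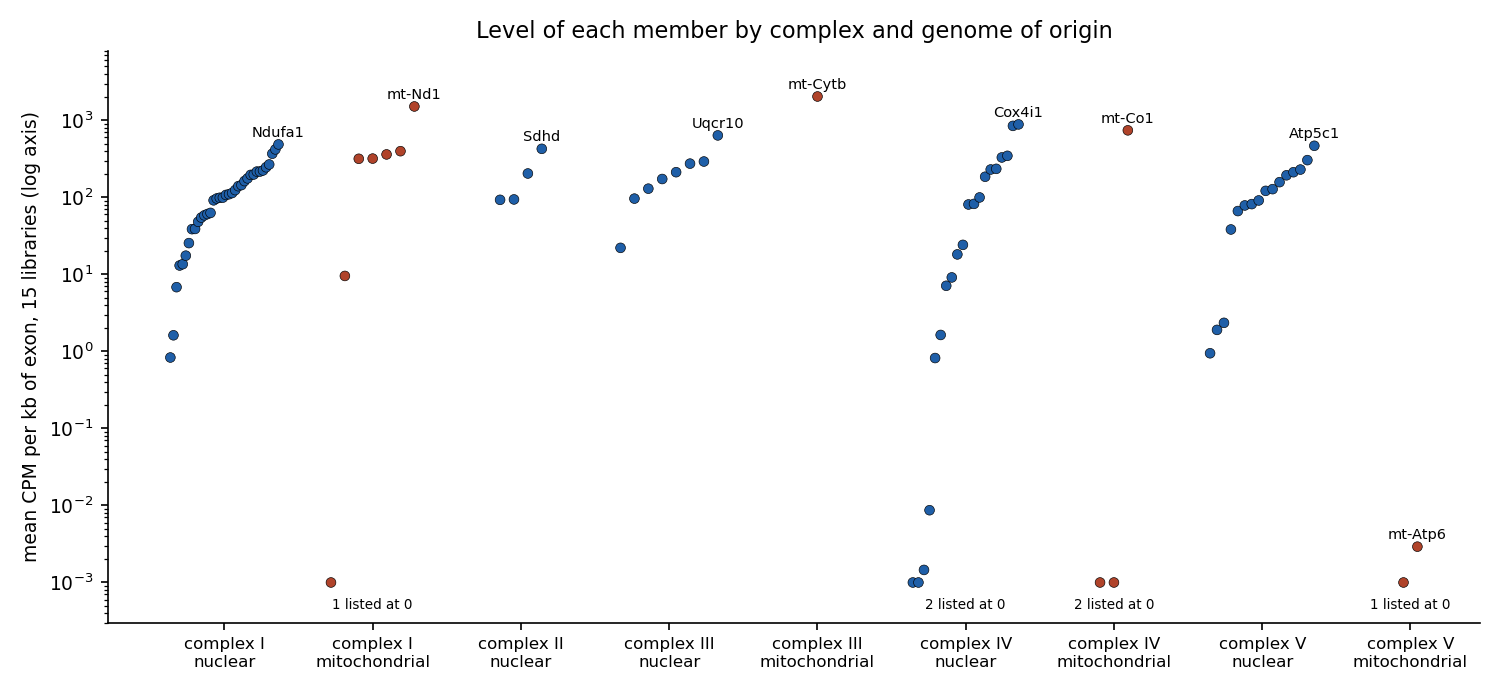
Mean level of each of the members of complexes I to V over the 15 libraries, in CPM per kb of exon on a log axis, by complex and genome of origin, 1 point per gene, with the highest gene of each column named. Genes at 0 are drawn at the bottom of the axis with their number, and the mitochondrial column runs from 0 (mt-Nd4l, mt-Co2, mt-Co3 and mt-Atp8) to 2047 CPM per kb (mt-Cytb).

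Of the 13 mitochondrial genes, 5 had almost no counts although they lie on the same polycistronic transcripts as the abundant ones. mt-Nd4l, mt-Co2, mt-Co3 and mt-Atp8 had 0 counts in all 15 libraries, and mt-Atp6 had 1 count. In the GRCm38 genome with GENCODE M21, mt-Co2 matched the nuclear pseudogene Gm28661 over 681 bases with 100% identity, mt-Co3 matched Gm28437 over 783 bases, mt-Atp6 matched Gm10925 over 678 bases and mt-Nd4l matched Gm10222 over 294 bases, each with 100% identity. Between 98.8% and 100% of the 50-base words of these 4 genes occurred in another transcript. How reads with several matches were treated is not stated here, and the pseudogenes themselves had at most 10 counts each over all libraries. mt-Atp8 shared 0% of its words with other annotated transcripts. Only annotated transcripts were searched, so a copy elsewhere in the genome would not have been seen. mt-Nd4, whose first 876 of 1378 bases match Gm28439 with 100% identity, was still counted at 361 CPM per kb.

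mt-Nd3 (chrM:9459-9806, plus strand), a core subunit of complex I, differed from its copy Gm28438 by 1 base in 345 and was counted at 9.54 CPM per kb, with 1541 counts in all. The start of the gene is shown because that single base, T3C in the copy counted from the first base of the gene, separates them; the capital marks it.

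mt-Nd3: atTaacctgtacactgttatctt

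The mitochondrial sums below therefore rest on 8 genes, and mt-Nd3 among them carries few counts. Over both genomes, 71 of the 98 members shared under 10% of their 50-base words with another gene. Among coding transcripts Atp5l shared 84.8%, Atp5o 47.6%, Uqcrb 43.4%, Ndufs3 39.7% and Atp5g2 38.3%. Among the mitochondrial genes mt-Nd4 shared 62.2% and mt-Co1 51.1%. The levels of all these genes are uncertain.

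Promoters of 67 nuclear members, 300 bases from 250 before to 50 after the start, were found in RefSeq on GRCm38.p6 and searched by exact letters on both strands. The letters GCGCANGCG, the core recognised by the nuclear respiratory factor NRF1, occurred in 19 of 67 member promoters (28.4%), in 14.2% of 9758 promoters of tested genes and in 6.47% of 27025 promoters in all. The stricter letters GCGCATGCG, a subset of the former, occurred in 11.9%, 3.83% and 1.81%. The ETS letters CCGGAAG, bound by GABPA among others, occurred in 22.4%, 19.1% and 9.12%, the YY1 letters AAGATGGCG in 8.96%, 3.38% and 1.49%, and the estrogen-related receptor letters TCAAGGTCA in 2.99% (Atp5g3 and Sdhd), 0.266% and 0.407%. The SP1 letters GGGCGG occurred in 40.3%, 62.8% and 35.9%. Of 68 promoters of mitochondrial ribosomal protein genes 23.5% held the letters GCGCANGCG. A few windows of members are shown as examples, as the 100 bases before the start in the direction of the gene. Atp5k, Ndufa11 and Atp5g3 rose with age in WT cells and Sdha fell. The Sdha window holds the NRF1 letters more than once, and a link of letters and change was not tested. Capitals mark the NRF1 letters, and in Atp5g3 the estrogen-related receptor letters read on the other strand. The windows are chr5:108434400-108434499 (minus strand) for Atp5k, chr17:56717662-56717761 (plus) for Ndufa11, chr2:73911327-73911426 (minus) for Atp5g3 and chr13:74350241-74350340 (minus) for Sdha.
Atp5k: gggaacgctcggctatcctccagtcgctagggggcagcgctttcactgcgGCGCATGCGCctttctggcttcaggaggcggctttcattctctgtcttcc
Ndufa11: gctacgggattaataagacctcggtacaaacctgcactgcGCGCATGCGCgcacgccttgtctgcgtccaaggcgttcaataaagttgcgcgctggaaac
Atp5g3: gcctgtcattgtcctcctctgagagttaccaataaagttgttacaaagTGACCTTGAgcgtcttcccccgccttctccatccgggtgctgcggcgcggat
Sdha: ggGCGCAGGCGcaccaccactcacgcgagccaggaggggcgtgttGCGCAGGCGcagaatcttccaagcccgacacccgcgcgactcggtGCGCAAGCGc

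The NRF1 letters stood in 13 of 46 promoters of members that rose with age in WT cells (28.3%) and in 6 of 19 promoters of tested members that did not (31.6%). The ETS letters stood in 23.9% and 21.1% of the same promoters. Both are descriptions of letters in these windows.

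Summed over the nuclear members, WT cells at 12 weeks stood above all other libraries. The nuclear members took 2.945%, 2.428% and 2.13% of the library counts in the 3 WT libraries at 12 weeks, and 1.739%, 1.614% and 1.932% in KO CD11b-low libraries of that age. In the 4-week libraries they took 1.67%, 1.695% and 1.512% in WT cells and 1.672%, 1.537% and 1.584% in KO cells, and in CD11b-high KO cells 1.632%, 1.518% and 1.734%. The mitochondrial members took 0.866%, 0.821% and 0.962% in WT cells at 12 weeks and 0.569%, 0.380% and 0.615% in KO CD11b-low cells. At 4 weeks their shares were 0.572%, 0.558% and 0.889% in WT cells and 0.720%, 0.554% and 0.552% in KO cells, so 1 WT library at 4 weeks reached the range of the older WT cells. The highest nuclear share, 2.945%, belonged to the WT library that stood apart in composition; the other WT libraries of 12 weeks still lay above all libraries of the other groups. In bulk samples a smaller share can come from fewer cells of a type or from less RNA of these genes per cell, and these cannot be told apart.

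**Figure D2:**
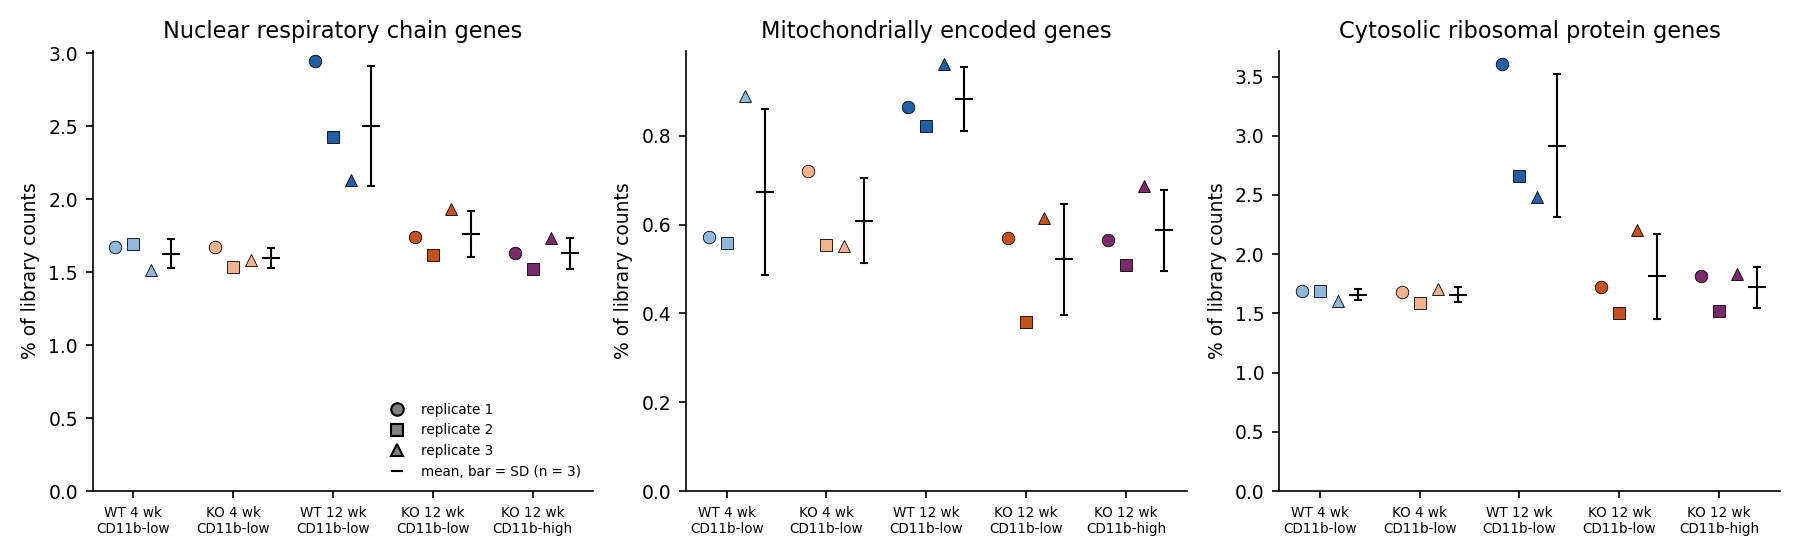
Percent of library counts in nuclear respiratory chain genes (left), in mitochondrially encoded genes (middle) and in cytosolic ribosomal protein genes (right), 1 point per library with the replicate number as its shape and the mean with its SD (n = 3) beside it. WT cells at 12 weeks held the highest nuclear shares (2.13% to 2.945%), with the highest ribosomal shares (2.481% to 3.61%) in the same libraries.

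Between 4 and 12 weeks, WT CD11b-low cells raised most of the nuclear members. Of 89 tested members 56 rose and 2 fell (edgeR quasi-likelihood test, Benjamini-Hochberg adjusted over 13284 genes, threshold 0.05), where 8.79% of all tested genes rose and 8.39% fell. The median log2 fold change was 0.90 over the 81 nuclear members and 0.50 over the 8 mitochondrial ones, beside -0.03 over all tested genes. Members of every complex rose. In complex I, the entry point of NADH, the 27 risers of 36 nuclear members (median 1.04) were Ndufs8, Ndufa7, Ndufa13, Ndufa11, Ndufb10, Ndufb4, Ndufb8, Ndufa2, Ndufs5, Ndufb3, Ndufa1, Ndufb11, Ndufs4, Ndufs6, Ndufa3, Ndufv3, Ndufb9, Ndufv2, Ndufa5, Ndufc1, Ndufa12, Ndufb7, Ndufc2, Ndufb5, Ndufb6, Ndufa8 and Ndufa9. Among them 25 of 29 accessory subunits rose (median 1.08) but 2 of the 7 nuclear-encoded core subunits (median 0.35), a division made after the values were seen and not tested.

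Ndufs8, an iron-sulfur core subunit of complex I, was measured at 266, 271 and 254 CPM in WT cells at 4 weeks and at 645, 616 and 492 CPM at 12 weeks. In KO cells it was at 237, 232 and 247 CPM at 4 weeks, at 393, 321 and 440 CPM in CD11b-low cells at 12 weeks, and at 285, 239 and 237 CPM in CD11b-high cells. Every WT library at 12 weeks lay above the other 12 libraries. The log2 rise in WT cells was 1.15 (SE 0.20, edgeR adjusted p = 0.00368).

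In complex III, which passes electrons from coenzyme Q to cytochrome c, 5 of 8 nuclear members rose (median 0.91): Uqcrh, Uqcr11, Uqcr10, Uqcrb and Uqcrfs1. Uqcrh, the hinge protein, was at 212, 221 and 202.5 CPM in WT cells at 4 weeks and at 678, 561 and 470 CPM at 12 weeks (log2 1.43, SE 0.25, edgeR adjusted p = 0.00368). In KO cells Uqcrh was at 207, 191 and 201 CPM at 4 weeks, at 309, 243 and 503 CPM in CD11b-low cells at 12 weeks and at 395, 307 and 384 CPM in CD11b-high cells, and 1 CD11b-low KO library lay within the range of WT cells of that age.

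Complex IV, the terminal oxidase, had 10 risers among 16 tested nuclear members (median 1.08): Cox7a1, Cox6b1, Cox4i1, Cox6b2, Ndufa4, Cox7a2l, Cox7b, Cox7a2, Cox6c and Cox4i2. Cox7a1, the isoform best known from heart and skeletal muscle, was at 7.98, 9.33 and 6.74 CPM in WT cells at 4 weeks and at 30.5, 25.2 and 17.98 CPM at 12 weeks (log2 1.62, SE 0.29, edgeR adjusted p = 0.00368). In KO cells it was at 8.50, 6.71 and 6.96 CPM at 4 weeks, at 11.9, 9.18 and 19.0 CPM in CD11b-low cells and at 12.7, 9.65 and 11.5 CPM in CD11b-high cells at 12 weeks. A single KO library at 12 weeks exceeded the lowest WT library of that age.

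The ATP synthase had 9 risers among 16 nuclear members (median 0.71): Atp5h, Atp5o, Atp5e, Atp5k, Atp5j2, Atp5mpl, Atp5j, Atp5g3 and Atp5c1. Atp5h, a subunit of the peripheral stalk, was at 73.6, 86.1 and 79.8 CPM in WT cells at 4 weeks and at 238, 177 and 153 CPM at 12 weeks (log2 1.247, SE 0.225, edgeR adjusted p = 0.00387). In KO cells Atp5h was at 75.3, 78.2 and 78.5 CPM at 4 weeks, at 114, 92.9 and 150.2 CPM in CD11b-low cells at 12 weeks and at 125, 101 and 102 CPM in CD11b-high cells, all below the WT cells of 12 weeks. Atp5d, the delta subunit of the central stalk, went the other way: it was at 141, 108 and 98.7 CPM in WT cells at 4 weeks and at 62.0, 21.4 and 28.5 CPM at 12 weeks (log2 -1.63, SE 0.48, edgeR adjusted p = 0.0281). The alpha and beta subunit genes Atp5a1 and Atp5b did not pass the test (log2 -0.18 and -0.55).

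In complex II, the succinate dehydrogenase, 3 of the 4 members rose and 1 fell. Sdhb, the iron-sulfur subunit, was at 333, 359 and 349 CPM in WT cells at 4 weeks and at 599, 691 and 561 CPM at 12 weeks, a log2 rise of 0.83 (edgeR adjusted p = 0.00971). The membrane anchors Sdhc and Sdhd rose by 0.78 and 0.84 on the log2 scale. Sdha, the flavoprotein that oxidises succinate, was at 421, 397 and 575 CPM at 4 weeks and at 132, 290 and 313 CPM at 12 weeks, and fell by 0.92 on the log2 scale (SE 0.29, edgeR adjusted p = 0.0391), without overlap. Its call was lost without any 1 of the 4-week WT or KO libraries 1 to 3 or WT libraries 1 and 2 of 12 weeks, and with upper-quartile or DESeq2's size factors, while that of Atp5d was lost without any 1 of the 4-week WT libraries 1 to 3 or WT libraries 2 and 3 of 12 weeks. The 58 calls among the members became 38 without WT library 3 of 4 weeks and 36 when the fit held only the groups compared.

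Of the mitochondrial genes, mt-Nd2 and mt-Nd1, core subunits of complex I, rose with age in WT cells. mt-Nd2 was at 254, 284 and 435 CPM at 4 weeks and at 820, 607.5 and 672.5 CPM at 12 weeks (log2 1.11, SE 0.26, edgeR adjusted p = 0.00951). mt-Nd1 was at 941, 997 and 1591 CPM at 4 weeks and at 2597, 2373 and 2405 CPM at 12 weeks (log2 1.06, SE 0.27, edgeR adjusted p = 0.0126). The other tested mitochondrial genes did not pass: the log2 differences were 0.88 for mt-Nd4, 0.50 for mt-Cytb, 0.49 for mt-Nd6, 0.32 for mt-Co1, 0.01 for mt-Nd5 and -0.44 for mt-Nd3. mt-Cytb, the member counted at the highest level, was at 1907, 1809 and 2936 CPM at 4 weeks and at 2602, 3357 and 3457 CPM at 12 weeks, with overlap.

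**Figure D3:**
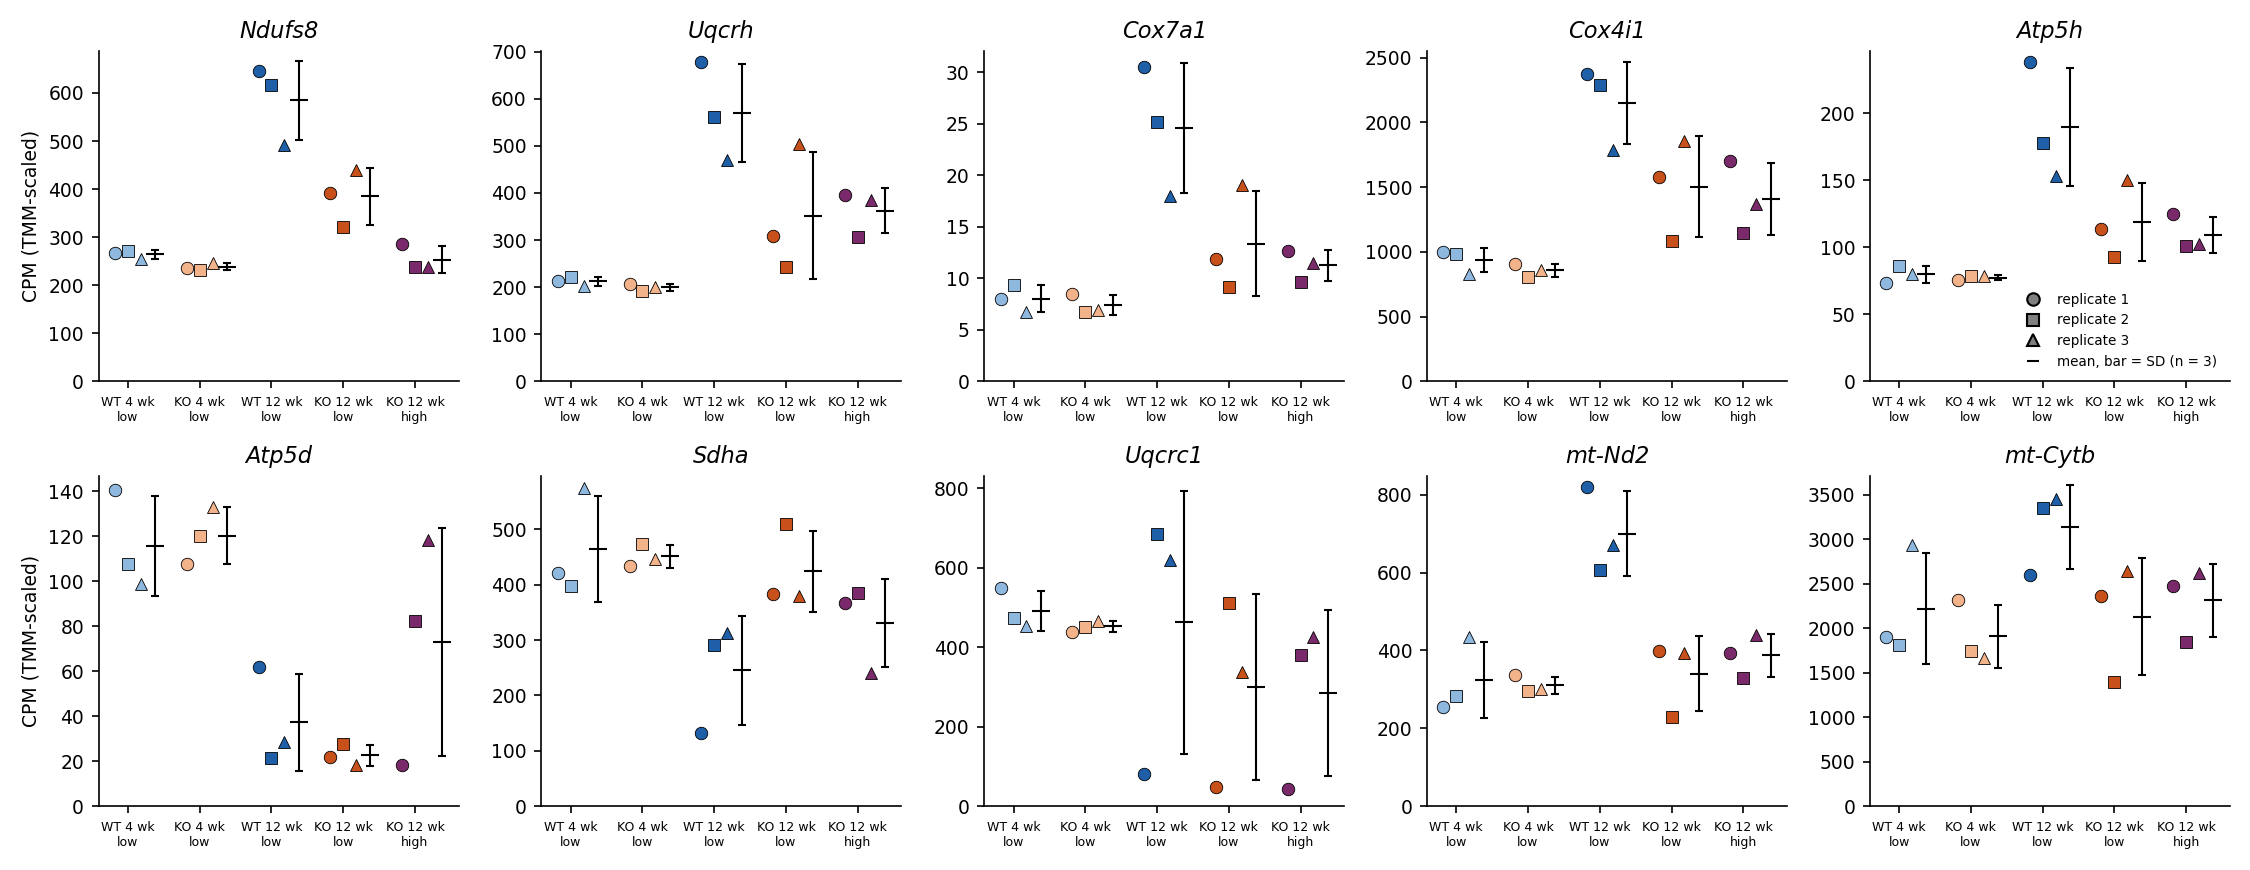
TMM-scaled CPM of 10 members in each library, 1 point per library with the replicate number as its shape and the mean with its SD (n = 3) beside it, on linear axes from 0. Ndufs8, Uqcrh, Cox7a1, Cox4i1, Atp5h and mt-Nd2 peak in WT cells at 12 weeks, Atp5d is lower in WT and KO CD11b-low cells at 12 weeks than at 4 weeks, Sdha has its lowest mean in WT cells at 12 weeks, and Uqcrc1 is at 43.6 to 80.7 CPM in the library numbered 1 of each 12-week group.

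Genes of other lists rose in the same comparison. Cytosolic ribosomal protein genes rose in 46 of 89 tested (median log2 0.81), led by Rps18 (1.42), Rpl3l (1.61), Rps14 (1.55) and Rps15 (1.40), and mitochondrial ribosomal protein genes in 33 of 75 with 1 falling (median 0.60), led by Mrps16 (1.26), Mrpl40 (1.07), Mrpl27 (1.24) and Mrpl41 (1.30). Mitochondrial import genes rose in 9 of 23 (median 0.64; Tomm5 1.33, Timm10 1.32, Tomm7 1.24 and Timm8b 1.31), and assembly factors of the complexes in 17 of 52 with 2 falling (median 0.61; Coa3 1.34, Uqcc3 1.31, Coa4 1.22 and Higd2a 1.29). Among electron carriers and coenzyme Q genes 2 rose (Coq2 1.59 and Etfb 0.94) and 1 fell (Gpd2 -0.86) of 21. Of 19 tricarboxylic acid cycle genes, Ogdh (-1.52) and Aco1 (-1.38) fell. In mitochondrial DNA maintenance Ssbp1 (0.93) and Tefm (1.01) rose among 21, and in mitochondrial RNA processing Hsd17b10 (1.16) and Slirp (1.22) rose and Pnpt1 fell (-1.03) among 19.

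Regulators known to drive nuclear respiratory genes fell or did not pass. Of 16 tested regulators, 3 fell in the edgeR test: Nrf1 (log2 -1.01, adjusted p = 0.0205), Gabpa (-0.80, adjusted p = 0.0261) and Pprc1 (-0.93, adjusted p = 0.033). Nrf1, the factor that binds the GCGCANGCG letters, was at 32.7 ± 1.78 CPM (mean ± SD, n = 3) in WT cells at 4 weeks and at 16.2 ± 4.45 CPM at 12 weeks. Ppargc1b, a coactivator of respiratory genes, was at 8.41 ± 2.28 and 5.26 ± 1.79 CPM and did not pass, and Ppargc1a had too few counts to be tested. Tfam and Polrmt, which transcribe mitochondrial DNA, passed in none of the 7 comparisons, with log2 differences of 0.28 and 0.29 in this one. Neither did the electron carrier Cycs (0.17) or Cyc1 (0.82). Cyc1 encodes the cytochrome c1 subunit of complex III, which the name rule did not take as a member. Among genes of mitochondrial dynamics Mfn2 (log2 -1.73), Dnm1l (-0.84) and Opa1 (-0.75) fell and Fis1 rose (1.06).

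Transcript length moved with age in these libraries. Across 13280 genes the log2 change in WT cells had a Spearman rho of -0.33 with summed exon length, a description across genes that share the same libraries. The median change was 0.48 over 1022 tested genes under 1 kb and 1.12 over the 23 members of that length, 0.47 over 1700 genes of 1 to 2 kb and 1.07 over 36 members, and 0.02 over 1892 genes of 3 to 4 kb and 1.09 over 8 members. Above 6 kb the median change was -0.32 over all genes and -0.19 over 3 members. Of the 11 members of 2 to 3 kb, all but Cox5a had a higher mean CPM in WT cells at 12 than at 4 weeks. The 8 members of 4 to 6 kb were divided. By mean CPM, Atp5f1, Atp5g1, Ndufb5 and Ndufb7 were higher at 12 weeks, and Atp5b, Ndufb2, Sdha and Uqcrc1 were lower. After each library's trend on length was removed, an alternative chosen after seeing the data, 39 members rose and 1 fell. The median was then 0.66 over nuclear and 0.10 over mitochondrial members. Of all 13284 tested genes 953 rose and 576 fell in that fit, with a median of 0.07. The labels give no preparation batches or dates, so age and any difference in preparation cannot be told apart.

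**Figure D4:**
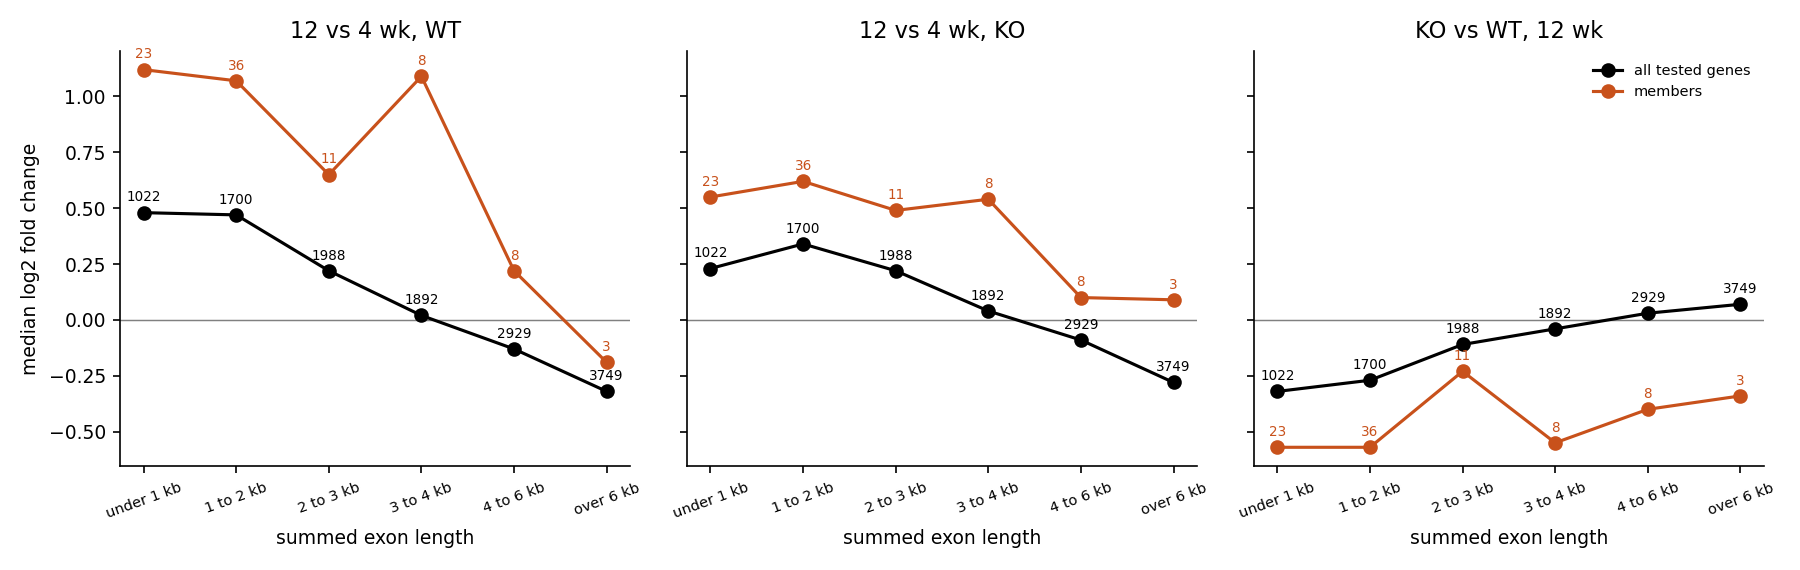
Median log2 fold change by summed exon length for all tested genes (black) and for the members (orange), with the number of genes at each point, for age in WT cells, age in KO cells and genotype at 12 weeks. In WT cells the medians of all genes run from 0.48 under 1 kb to -0.32 over 6 kb, and those of the members from 1.12 to -0.19 with 3 genes in the last class.

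In KO CD11b-low cells the same age comparison called 8 members higher and 2 lower (edgeR), where 4.81% of all tested genes rose and 2.08% fell. The median log2 difference was 0.57 over nuclear members and 0.08 over mitochondrial members, and all 10 called members were nuclear. As unscaled shares of library counts, nuclear members took 1.597% on average in KO cells at 4 weeks and 1.762% at 12 weeks. Mitochondrial members took 0.609% and 0.521%. The TMM scaling factors were 1.13 to 1.17 in the 4-week KO libraries and 0.843 to 0.990 in the 12-week KO CD11b-low libraries. A fit without such scaling was not made. The mitochondrial median changed sign with single KO CD11b-low libraries of 12 weeks, at -0.02 without library 1, 0.32 without library 2 and -0.14 without library 3. mt-Nd3 differed by -1.47 (edgeR adjusted p = 0.0752) and did not pass. The risers were Sdhb and Sdhd of complex II, Ndufb8, Ndufa7, Ndufs8 and Ndufa11 of complex I, Uqcr10 of complex III and Atp5o of the ATP synthase, and the 2 that fell were Atp5d and Ndufa10.

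Sdhb was at 325, 324 and 335 CPM in KO cells at 4 weeks and at 616, 508 and 569 CPM at 12 weeks (log2 0.78, SE 0.20, edgeR adjusted p = 0.0256), levels like those of WT cells given above. Ndufb8, an accessory subunit of complex I, was at 182, 151 and 168 CPM and then at 331, 229.8 and 516 CPM (log2 1.10, adjusted p = 0.03), and in WT cells at 210, 201 and 150 CPM and then at 377, 603 and 533 CPM. Atp5o, the stalk subunit OSCP, was at 257, 220.5 and 220.1 CPM and then at 476, 358 and 507 CPM (log2 0.94, adjusted p = 0.0305), and in WT cells at 257, 261 and 222 CPM and then at 810.5, 611 and 446 CPM. The groups of the 2 ages did not overlap for any of these genes in either genotype.

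Ndufa7 of complex I was at 171, 142 and 154 CPM in KO cells at 4 weeks and at 312, 205 and 431.5 CPM at 12 weeks (log2 1.02, edgeR adjusted p = 0.0326), and in WT cells at 184, 198 and 161 CPM and then at 612, 523 and 413 CPM. Atp5d was at 108, 120.3 and 133 CPM in KO cells at 4 weeks and at 21.8, 27.7 and 18.3 CPM at 12 weeks, the largest log2 difference of any member in this comparison ( -2.41, SE 0.50, edgeR adjusted p = 0.00905). Ndufa10, an accessory subunit, was at 73.55, 77.1 and 75.03 CPM and then at 37.7, 39.0 and 26.7 CPM (log2 -1.13, SE 0.31, edgeR adjusted p = 0.0371). Both fell in every 12-week KO CD11b-low library, below all 4-week KO libraries.

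The number of members called in KO cells was not stable. It was 1 with the KO CD11b-low library 1 of 12 weeks left out, 30 without library 2 and 0 without library 3, 1 without any 1 of the 4-week KO libraries, 38 without WT library 1 of 12 weeks, 5, 5 and 6 without the 4-week WT libraries 1, 2 and 3 and 16 without CD11b-high library 1. DESeq2 called 36 and the fit with the length trend removed called 2. In KO cells 4 of 75 mitochondrial ribosomal protein genes rose and 1 fell (median 0.41), 1 of 89 cytosolic ribosomal protein genes rose (Rpl3l 1.12; median 0.26) and 4 import genes rose (Timm8b 1.10, Timm10 0.87, Tomm5 0.84 and Timm17b 0.71). Nrf1 (-1.07) and Nrip1 (-1.08) fell among the regulators.

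At 4 weeks no member differed between the genotypes by the test. With edgeR 0 of 89 members passed, 0 had an unadjusted p under 0.05 and DESeq2 and limma voom also called 0, where 0.0151% of all tested genes were called higher in KO cells and 0.0828% lower. Of all 13284 tested genes 199 had an unadjusted edgeR p under 0.05 in either direction. The median log2 difference was -0.05 over nuclear and -0.17 over mitochondrial members, beside -0.01 over all tested genes. In KO cells 71 of 89 members were lower, as were 6925 of all tested genes. The mitochondrial median was 0.08 without WT library 3 of 4 weeks. In 5 members all KO libraries lay below all WT libraries, a share to be read against 4.72% of all tested genes. The members of smallest p, none of which passed (adjusted p = 1), were Cox4i2 (log2 0.80), mt-Nd3 (0.31) and Cox7c (0.11) on the higher side and Ndufab1 (-0.63), Cox5a (-0.80) and Ndufb9 (-0.26) on the lower. The value of mt-Nd3 was -0.08 without WT library 1 and -0.05 without KO library 2.

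At 12 weeks KO CD11b-low cells lay below WT cells for most members, but 1 member passed the test. mt-Nd2 was lower, at 398, 230.1 and 393 CPM in KO cells against 820, 607.5 and 672.5 CPM in WT cells (log2 -1.04, SE 0.26, edgeR adjusted p = 0.038), without overlap. With edgeR 0 members were called higher, with 1 of them higher at an unadjusted p under 0.05 and 0 by DESeq2 and by limma voom, where 2.6% of all tested genes were called higher and 0.497% lower. In all, 84 of 89 members were lower in KO cells, 43 of them at an unadjusted p under 0.05. Of all 13284 tested genes 7014 were lower, and 2724 had an unadjusted edgeR p under 0.05 in either direction. The median log2 difference was -0.55 over nuclear and -0.70 over mitochondrial members, beside -0.04 over all tested genes. Without WT library 1 the nuclear median was -0.34. In 20 members all KO libraries lay below all WT libraries, where 7.99% of tested genes did so. Those 20 included 5 mitochondrial genes (mt-Nd1, mt-Nd2, mt-Nd3, mt-Nd4 and mt-Nd6) and Ndufs8, Ndufa13, Ndufb2, Ndufb4, Ndufb11, Ndufc2, Ndufv2, Uqcr11, Uqcrfs1, Cox4i2, Cox5a, Cox6b2, Atp5h, Atp5g2 and Atp5g3.

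By complex, the median differences at 12 weeks were -0.57 for nuclear complex I, -0.10 for complex II, -0.57 for complex III, -0.57 for complex IV and -0.53 for the ATP synthase. The members closest to the threshold on the lower side were mt-Nd1 (log2 -0.99, edgeR adjusted p = 0.0531) and Cox6b2 (-0.95, adjusted p = 0.0632), the isoform of subunit 6b known from testis. mt-Nd1 was at 1380, 839 and 1504 CPM in KO cells, below the WT values of 2373 to 2597 CPM. On the higher side none passed: Sdha was at 383, 509 and 380 CPM in KO against 132, 290 and 313 CPM in WT cells (log2 0.79, adjusted p = 0.15), Ndufs1, a core subunit of complex I, differed by 0.59 (adjusted p = 0.249) and Cox6a2 by 1.16 (adjusted p = 0.321). Sdha thus lay above the WT libraries of that age in every KO CD11b-low library.

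The call of mt-Nd2 was lost without any 1 of WT libraries 1 to 3 of 12 weeks, KO CD11b-low libraries 2 and 3 of 12 weeks, the 4-week KO libraries 1 to 3 or WT library 2 of 4 weeks, and with the length trend removed. DESeq2 called 8 members lower. Cytosolic and mitochondrial ribosomal protein genes had median differences of -0.57 and -0.45 in the same comparison. Among the other lists, Ogdh of the tricarboxylic acid cycle (log2 1.23, edgeR adjusted p = 0.0482) and the mitophagy receptor Optn (2.42, adjusted p = 0.000227) were higher in KO cells.

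The change with age in KO cells less that in WT cells was tested directly as an interaction. With edgeR 0 of 89 members passed, with 3 lower and 0 higher at an unadjusted p under 0.05 and 0 called by DESeq2 and limma voom, where 0.248% of all tested genes were called higher and 0.0% lower. The median interaction was -0.46 over the members and -0.02 over all tested genes, and 80 of 89 members had the larger log2 rise in WT cells. Of all 13284 tested genes 6770 had a negative interaction, and 1103 had an unadjusted edgeR p under 0.05 in either direction. The smallest p on the lower side belonged to Cox4i2 (log2 -2.001, adjusted p = 0.43), mt-Nd2 (-0.98, adjusted p = 0.431) and Cox6b2 (-0.85, adjusted p = 0.568), and on the higher side to Sdha (0.83, adjusted p = 0.62), Ndufs1 (0.64, adjusted p = 0.671) and Cox6a2 (1.18, adjusted p = 0.726). So the larger rise in WT cells was seen in most members and passed in none. This test shares its libraries with the 4 comparisons above, and the comparisons at 12 weeks share the WT libraries with the age comparison in WT cells.

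CD11b-high KO cells set against CD11b-low WT cells of the same age differed in both genotype and CD11b. Of 89 members 1 was higher and 19 lower in edgeR, where 9.23% of all tested genes were higher and 5.6% lower, with a median log2 difference of -0.60 over nuclear and -0.45 over mitochondrial members beside -0.01 over all. The lower members were Ndufs8, Ndufb10, Ndufa13, Ndufa11, Ndufv3, Ndufb3, Ndufb11, Ndufa3 and Ndufc2 of complex I, Cox6b2, Cox4i2, Cox7a1, Ndufa4 and Cox6b1 of complex IV, Atp5g3, Atp5h and Atp5o of the ATP synthase, and mt-Nd1 and mt-Nd2. The WT libraries are the same ones that the KO CD11b-low cells were compared with.

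Ndufs8 showed the smallest p, with 285, 239 and 237 CPM in CD11b-high KO against 645, 616 and 492 CPM in WT cells (log2 -1.21, SE 0.20, edgeR adjusted p = 0.00071). Cox6b2 was at 72.4, 52.9 and 48.8 CPM against 251, 141 and 118 CPM (log2 -1.55, SE 0.27, adjusted p = 0.00105). Ndufb10, an accessory subunit of complex I, was at 319.8, 221 and 222 CPM against 642, 486 and 359.5 CPM (log2 -0.96, SE 0.24, adjusted p = 0.0119). None of the 3 overlapped between the groups.

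Cox4i2, the isoform of subunit 4 known from lung and from the response to low oxygen, had 299 counts over all libraries and was at 0.204, 0.187 and 0.372 CPM in CD11b-high KO against 1.13, 1.655 and 1.32 CPM in WT cells (log2 -2.38, SE 0.57, edgeR adjusted p = 0.00903). Cox6a2, the muscle isoform of subunit 6a with 480 counts in all, was the member that was higher: 1.55, 3.42 and 4.09 CPM against 0.322, 0.159 and 1.19 CPM (log2 2.47, SE 0.66, edgeR adjusted p = 0.0188). Both isoforms stayed far below their ubiquitous partners Cox4i1 and Cox6a1 (0.820 and 1.64 against 885 and 234 CPM per kb).

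The count of 20 fell to 3 when the fit held only the 2 groups compared, and to 11 with the length trend removed. Without single libraries it was 33, 3 and 6 (CD11b-high libraries 1, 2 and 3), 34 (KO CD11b-low library 2 of 12 weeks), 11 and 33 (WT libraries 2 and 3 of 12 weeks), 11 and 12 (KO libraries 2 and 3 of 4 weeks) and 13 (WT library 1 or 2 of 4 weeks). Cox4i2, Cox6b2 and Ndufs8 were called in every one of these single-library fits. In the same comparison 20 of 89 cytosolic and 15 of 75 mitochondrial ribosomal protein genes were lower (medians -0.54 and -0.50), as were Esrra (-1.78) and Ppard (-1.38) among the regulators, while Optn (3.25), Mfn2 (0.98) and Ogdh (1.28) were higher.

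Within KO cells of 12 weeks no member differed between CD11b-high and CD11b-low cells by the main test. With edgeR 0 of 89 members passed, with 10 higher and 3 lower at an unadjusted p under 0.05, while DESeq2 called 2 higher and limma voom 0, where 0.572% of all tested genes were higher and 0.12% lower. An unadjusted edgeR p under 0.05 in either direction was found in 1332 of 13284 tested genes. The median log2 difference was -0.12 over nuclear and 0.23 over mitochondrial members, and neither sign was stable: without KO CD11b-low library 3 the nuclear median was 0.05, and without KO CD11b-low library 2 the mitochondrial one was -0.03. The members of smallest p did not pass: Ndufb2 (log2 1.28, adjusted p = 0.138), Atp5d (1.69, adjusted p = 0.144) and Cox5a (2.09, adjusted p = 0.262) on the higher side and Ndufs8 (-0.60, adjusted p = 0.229), Cox6b2 (-0.60, adjusted p = 0.457) and Cox4i2 (-1.19, adjusted p = 0.498) on the lower.

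Atp5d was at 18.2, 82.3 and 118 CPM in CD11b-high KO cells, so that 1 library lay just below the range of CD11b-low cells (18.3 to 27.7 CPM) and 2 lay above it. Cox5a, a subunit of complex IV that was counted at 6.04 to 33.0 CPM in 14 libraries, reached 99.4 CPM in CD11b-high library 3, and without that library the log2 difference was -0.06. Leaving out CD11b-high library 1 gave 4 higher members.

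**Figure D5:**
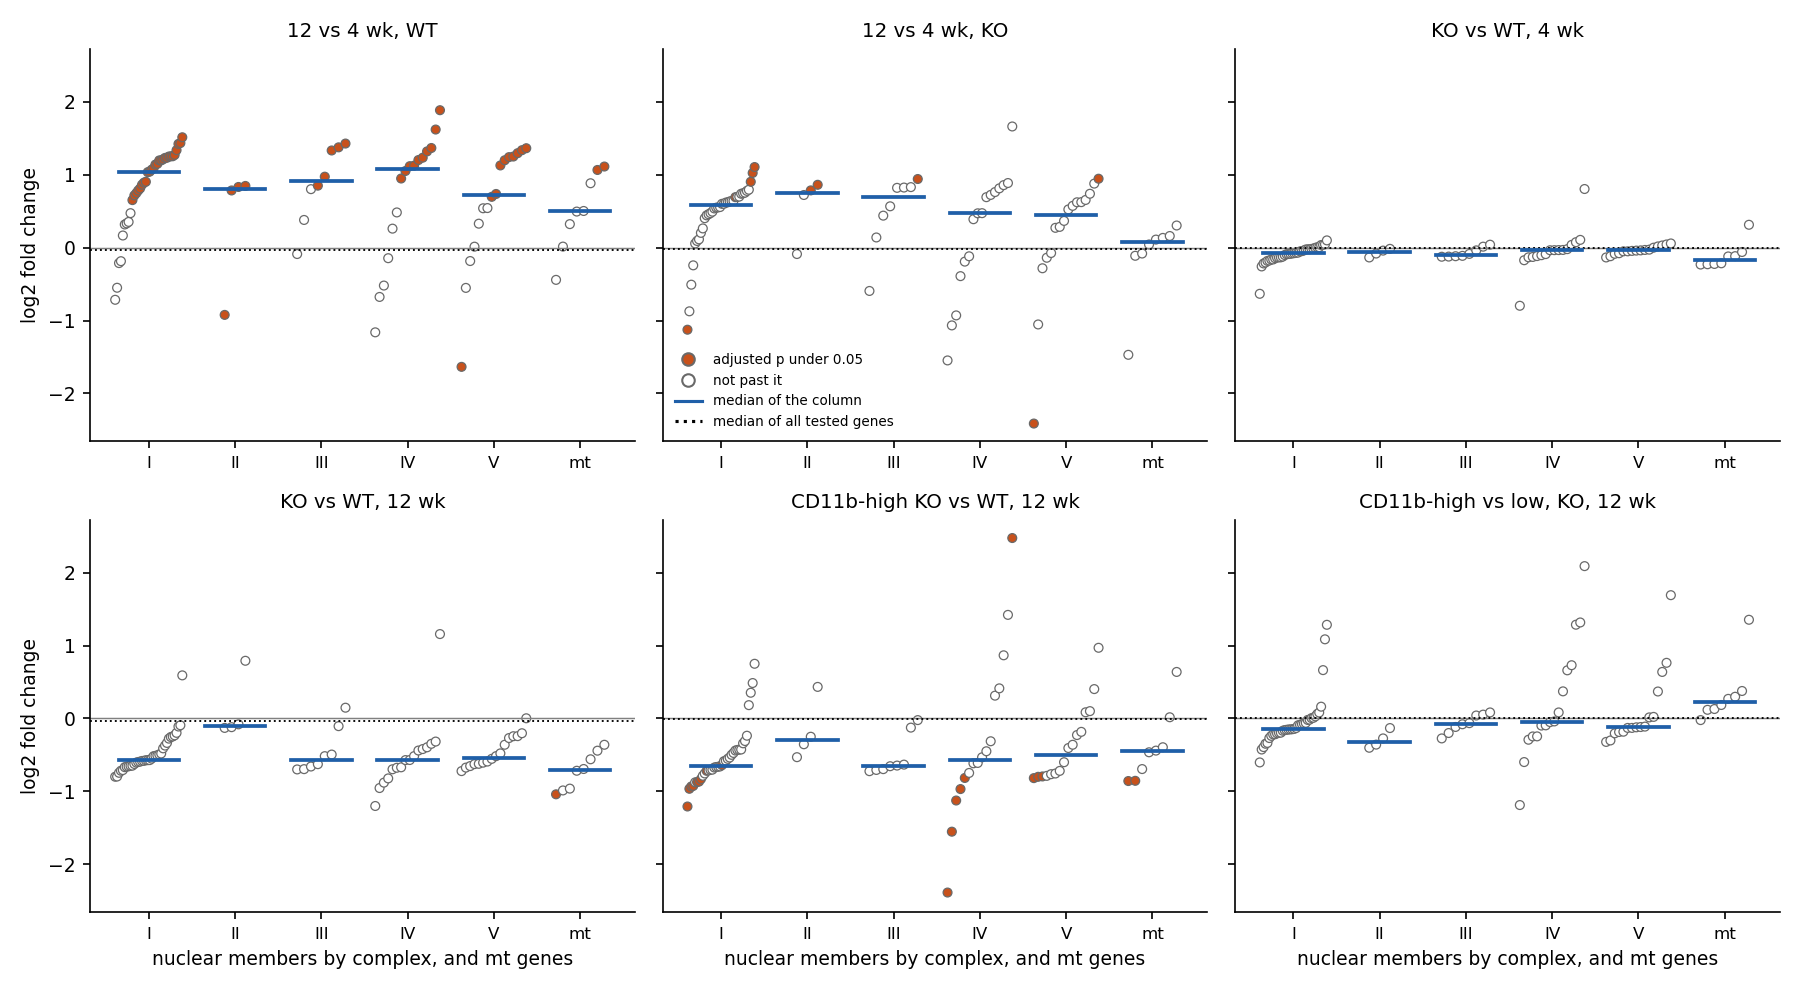
Log2 fold change of each tested member in 6 comparisons, nuclear members by complex (I to V) and mitochondrial genes (mt), with the median of each column in blue, the median of all tested genes dotted, and filled points past an adjusted p of 0.05 (edgeR). Age in WT cells carries 58 filled points, age in KO cells 10, CD11b-high KO against WT cells 20, KO against WT at 12 weeks 1, and the other panels 0.

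Ordered by group mean, 68 of 89 members were highest in WT cells at 12 weeks, 9 in CD11b-high KO cells, 7 in WT and 3 in KO cells at 4 weeks and 2 in KO CD11b-low cells at 12 weeks. The lowest mean lay in KO cells at 4 weeks for 57 members, in KO CD11b-low cells at 12 weeks for 16, in WT cells at 4 weeks for 9, in CD11b-high cells for 5 and in WT cells at 12 weeks for 2. The same ordering was not made over all tested genes, so these counts have no background beside them. They take any size of difference, and the nuclear median differed by -0.05 between KO and WT cells at 4 weeks. In both genotypes 67 of 89 members were higher at 12 than at 4 weeks. Of all 13284 tested genes 6439 were higher at 12 weeks in WT cells and 6460 in KO cells, each comparison taken alone. Between WT and KO cells at 4 weeks no member passed the edgeR test.

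Isoforms of complex IV subunits could be set side by side per length, with Cox7a2l and Ndufa4l2 placed beside them by symbol alone. Cox4i1 stood at 885 and Cox4i2 at 0.820 CPM per kb, Cox6a1 at 234 and Cox6a2 at 1.64, Cox6b1 at 847 and Cox6b2 at 80.8, and Cox7a2 at 346, Cox7a2l at 99.7 and Cox7a1 at 24.2 CPM per kb. Cox8a was at 185 CPM per kb with 1 count for Cox8b and 0 for Cox8c, and Ndufa4, now assigned to complex IV, at 329.5 CPM per kb with 1 count for Ndufa4l2. With age in WT cells both partners rose for Cox4i1 (log2 1.20) and Cox4i2 (1.88), for Cox6b1 (1.36) and Cox6b2 (1.32), and for Cox7a1 (1.62), Cox7a2 (1.12) and Cox7a2l (0.95). Cox6a1 (-0.15), Cox6a2 (0.48) and Cox8a (-0.68) did not pass in that comparison.

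Some members were set by single libraries. Uqcrc1, a core protein of complex III, was at 439 to 549 CPM in all 6 libraries of 4 weeks, but at 12 weeks it was at 80.7, 686 and 621 CPM in WT, 48.7, 512 and 338 CPM in KO CD11b-low and 43.6, 381 and 427 CPM in CD11b-high cells. Cox6a1 followed the same pattern, with 53.0, 212 and 285 CPM, 26.4, 200.5 and 84.7 CPM, and 22.2, 176 and 205 CPM. In both genes the library numbered 1 lay under 50% of the lower of the other libraries in each 12-week group, as it did in 181 of 13284 tested genes (1.36%), a rule chosen after the values were seen. With these 3 libraries left out together, 63 members were called higher and 5 lower with age in WT cells, beside 1724 and 1978 of all 13603 genes then tested. With age in KO cells 34 members were higher and 4 lower, beside 1226 and 758 of all genes. In CD11b-high KO against WT cells 6 members were higher and 40 lower, beside 1830 and 1306 of all genes, and between the CD11b classes 5 were higher and 1 lower, beside 366 and 147. In KO against WT cells at 12 weeks 2 members were lower, beside 94 of all genes.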

How the data were processed

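RNA of 15 libraries in 5 groups of 3 was made into cDNA with a SMARTer kit, per the labels' protocols. The authors aligned reads with STAR and counted them with featureCounts (Subread), per the submitters' processing notes; their versions, the genome build, annotation and strand setting, and how multi-mapped reads were handled, were not stated. The deposited values are whole counts per gene. Of 40780 rows, 270 exact repeats were removed.

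Genes were tested with edgeR 4.0.16 (R 4.3.3) by the robust quasi-likelihood test in 1 fit of all 15 libraries (10 residual degrees of freedom), after filterByExpr (minimum count 10, minimum total 15) and TMM scaling, with Benjamini-Hochberg adjustment over 13284 genes and a threshold of 0.05. The scripts were tested on simulated data. CPM values of single genes are TMM-scaled, and the marker sums are not. The TMM factors were 1.10 to 1.17 in the 4-week libraries and 0.832 to 1.036 in the 12-week libraries. Exon lengths came from GENCODE M21 (GRCm38). Alternatives used RLE and upper-quartile factors, totals without mitochondrial genes, no filter, limma 3.58.1 voom, DESeq2 1.42.0, only the compared groups, a replicate block and each library left out; removal of length or GC trends and of the libraries numbered 1 of 12 weeks was chosen after seeing the data.

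The members and lists were chosen with earlier results of these data known. Named were every member past the threshold, the 3 smallest p in each direction where fewer than 3 passed, the most abundant nuclear member of each complex, all mitochondrial and complex II genes, the isoform sets, and up to 4 called genes of each other list. Library values are given for the 4 smallest p per direction. Same-numbered CD11b-high and CD11b-low KO libraries deviated together (correlations 0.43, 0.35 and 0.11). The KO and WT CD11b-low libraries numbered 1 of 12 weeks, which cannot share mice, also did so (0.36). The correlations therefore do not establish that the numbers pair samples. With the replicate block 0 members were called between CD11b-high and CD11b-low KO cells. The labels call the libraries independent replicates of pooled mice.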

Additional observations from a re-analysis of the deposited data

How the results depend on the processing

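Counts of called members depended on the fit, and the cause was not tested. KO against WT at 12 weeks (1 member) gave 2 with upper-quartile factors, limma voom, the GC trend removed or the 12-week libraries numbered 1 left out, 4 with no filter, 8 with DESeq2 or the replicate block, 0 with only the compared groups or the length trend removed, and 0 to 3 leaving out single libraries (2 without WT library 3 of 4 weeks and 3 without KO CD11b-low library 3 of 12 weeks). CD11b-high against CD11b-low (0) gave 4 with no filter, 2 with DESeq2, 6 without the libraries numbered 1 and 0 to 4 leaving out single libraries (4 without CD11b-high library 1). CD11b-high KO against WT (20) gave 31 with DESeq2 or the GC trend removed, 3 with only the compared groups, 32 with the block, 11 with the length trend removed, 46 without the libraries numbered 1, and 3 to 34 leaving out single libraries. Age in WT cells (58) gave 36 with only the compared groups and 38 to 62 leaving out single libraries, and 35 of the 58 were called in all of those. Age in KO cells (10) gave 18 with RLE factors, 36 with DESeq2, 26 with only the compared groups, 1 with the block, 2 and 20 with the length or GC trend removed, 38 without the libraries numbered 1, and 0 to 38 leaving out single libraries. Genotype at 4 weeks and the interaction gave 0 in every fit that left out 1 library.

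The nuclear median for age in WT cells was 1.08 with upper-quartile factors and 0.66 with the length trend removed, where the mitochondrial one was 0.10; for age in KO cells the nuclear one was 0.37 with the length trend removed. Leaving out single libraries, the nuclear median for genotype at 12 weeks ran from -0.67 to -0.34 (-0.34 without WT library 1 of 12 weeks). The medians whose sign turned are given with the results. Among named members, signs turned for mt-Nd3 in genotype at 4 weeks (-0.08 to 0.61) and Cox5a in CD11b-high against CD11b-low (-0.06 to 2.56). Upper-quartile factors moved the split of all called genes for age from 1167 higher and 1115 lower to 1574 and 762 in WT cells, and from 639 and 276 to 736 and 179 in KO cells. For the replicate block, the samples of each comparison share a replicate number, and whether it pairs them was not established. Over all tested genes the calls ranged, with no library left out singly, from 189 to 1090 for genotype at 12 weeks (412 reported), 2 to 73 for genotype at 4 weeks (13), 18 to 533 for CD11b in KO cells (92), 793 to 3136 for CD11b-high KO against WT (1970), 1123 to 3702 for age in WT (2282), 549 to 1984 for age in KO cells (915) and 7 to 321 for the interaction (33).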
